A study of Capra hircus with 3 samples.

Results

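Glucose uptake and glycogen metabolism in skeletal muscle were described by 9 genes, chosen by their product text in a deposited table of 24689 entries. They cover the insulin-regulated glucose transporter (SLC2A4), glucose phosphorylation (HK2), control of the glycolytic activator fructose-2,6-bisphosphate (PFKFB1 and PFKFB3), glycogen synthesis (UGP2, GYG1, GYS1 and GBE1) and glycogen breakdown (PYGM). GYS1 had a second entry with the same product text, so that 10 entries were found. RNA had been sequenced from the longissimus dorsi, the long muscle beside the spine, of goats (Capra hircus) in a kid library (2 months of age), a youth library (9 months) and an adult library (24 months). Each stage had 1 library, and no treatment or genotype was labelled. The labels used here do not state breed, sex, feeding before sampling, or whether a library held 1 animal or several. All values therefore describe these 3 libraries, no test between stages was possible, and the intervals printed cover counting error only.

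Muscle takes up glucose through SLC2A4 (GLUT4), which insulin and contraction bring to the cell surface, and hexokinase traps it as glucose 6-phosphate. The sugar then enters glycolysis, where fructose-2,6-bisphosphate speeds phosphofructokinase, or it is stored as glycogen. Storage runs through UDP-glucose, a primer on glycogenin, chain extension by glycogen synthase and branching. Phosphorylase releases the store when the fibre contracts.

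Levels are in FPKM, which divides a gene's reads by its length and by the library's total, so that different genes can be compared per length. From the spacing of the values the totals came to 15829474 reads in kid, 14920689 in youth and 18399385 in adult. Each of the 9 genes rested on at least 452 reads in every library. The protocol label names mammary tissue and the tissue label longissimus dorsi: all 6 milk protein genes looked for were listed at 0 in every library, while muscle creatine kinase (CKM) stood between 14183 and 19069 FPKM.

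Glycogen phosphorylase of muscle dominated the group, and the order of the other genes differed between the libraries. PYGM, the enzyme that releases glucose 1-phosphate from glycogen, had 2291, 2669.7 and 2148 FPKM in the kid, youth and adult libraries. It was the entry with rank 25, 20 and 28 by level, and it held 78.3%, 80.7% and 73.7% of the summed FPKM of the 9 genes. UGP2, which makes UDP-glucose, came next in every library, 13.0-fold, 15.8-fold and 9.09-fold below PYGM. The lowest places belonged to the branching enzyme GBE1 and to HK2 in all 3 libraries. In kid these last genes did not differ beyond counting error (ratio 1.09, interval 0.975 to 1.23), while every other pair of neighbours in the order of a library did. SLC2A4 took place 5 in kid, place 6 in youth and place 5 in adult. PFKFB3 took place 6 in kid, place 3 in youth and place 7 in adult.

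**Figure D1:**
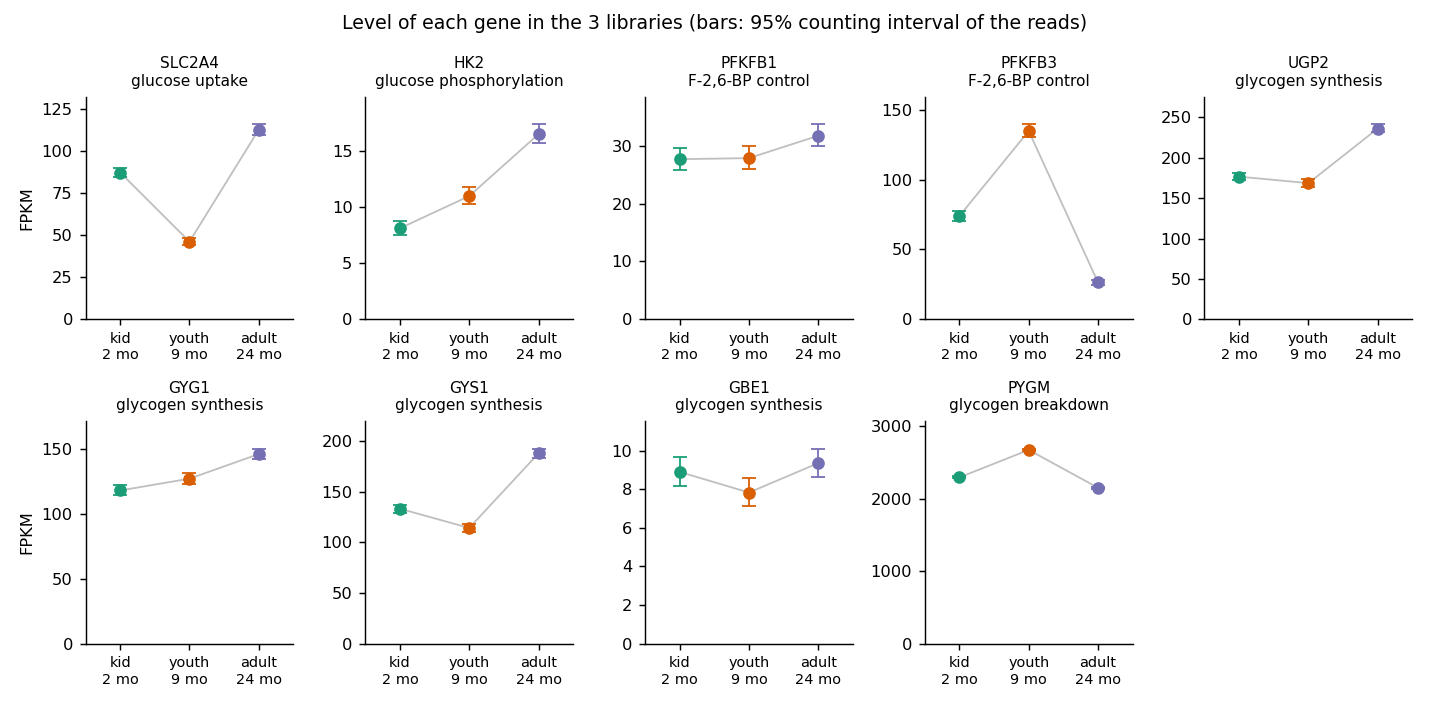
FPKM (vertical axis, linear from 0) of each of the 9 genes in the kid, youth and adult libraries, with the exact 95% counting interval of the reads as bars and a grey line that only joins the points. SLC2A4 is lowest in youth at 46.3 FPKM, PFKFB3 highest there at 135 FPKM, and HK2 is highest in adult at 16.5 FPKM.

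SLC2A4, the transporter that carries glucose into the fibre, was lowest in the youth library. The kid library had 87.5 FPKM, the youth library 46.3 and the adult library 113, from 3593, 1792 and 5396 reads. The youth value lay 1.89-fold below kid (interval 1.79 to 2.001), and the adult value 2.44-fold above youth (2.31 to 2.58) and 1.29-fold above kid (1.24 to 1.35). On the scale of log2(FPKM + 1) these differences were -0.90, 1.27 and 0.37. Of 12121 entries with a mean of at least 1 FPKM, 0.932% were at least as far below kid in youth, and 0.446% at least as far above youth in adult.

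SLC2A4 made up most of the transporter messages of its family. Its share of the summed FPKM of 11 SLC2A genes was 75.7% in kid, 71.9% in youth and 81.7% in adult, while the sum itself was 116, 64.4 and 138 FPKM. SLC2A3, a high-affinity transporter best known from neurons and blood cells, was also lowest in youth, at 15.6, 8.44 and 13.7 FPKM. SLC2A1, the widespread basal transporter, stood at 3.93, 3.19 and 2.93 FPKM, and each pair of libraries was within counting error for it. Of the 10 other SLC2A genes and the sodium-coupled SLC5A1, 4 had a mean of at least 1 FPKM. In youth against kid 3 of the 4 were lower and 0 higher beyond counting error, beside 26.9% and 11.6% of the 12121 entries. In adult against youth 2 were higher and 0 lower, beside 22.3% and 27.0%. SLC2A8, an intracellular transporter, had the youth low as well, at 2.93, 1.87 and 3.77 FPKM. SLC2A9 and SLC5A1 were listed at 0 in all libraries. Adipocytes also use SLC2A4, and all 8 adipocyte markers looked for had an entry, none of them at 0 throughout. Their summed FPKM was 376, 218 and 227. Of the 7 above the filter, 6 were lower in youth than in kid beyond counting error, beside 26.9% of all entries. By direction alone, 5 were lower and 2 higher after scaling by the median of gene ratios. Adiponectin (ADIPOQ), a defining marker, stood at 64.3, 24.3 and 32.4 FPKM. All 5 smooth muscle markers were lower in youth than in kid and higher in adult than in youth beyond counting error. The shares of all entries were 26.9% and 22.3%, and the median differences of the markers were -0.51 and 0.40. After scaling by the median of gene ratios 4 were lower and 1 higher in youth against kid. Scaling to the mean sum of FPKM left 4 of the smooth muscle markers higher and 1 lower in adult against youth. Among them smooth muscle actin (ACTA2) stood at 137, 95.8 and 147 FPKM, while the summed level of 4473, 4241 and 4491 FPKM came mostly from desmin (DES), which muscle fibres also make. The part of both cell types in the SLC2A4 values was not tested, and in bulk muscle fewer cells of a type and less RNA per cell cannot be told apart.

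HK2, the insulin-responsive hexokinase of muscle, had a higher level in each older library. Its kid, youth and adult values were 8.12, 10.99 and 16.5 FPKM, from 635, 810 and 1501 reads. The youth library was 1.35-fold above kid (1.22 to 1.504) and the adult library 1.503-fold above youth (1.38 to 1.64). Adult was 2.03-fold above kid (1.85 to 2.23), which is 0.94 on the log2(FPKM + 1) scale, where 2-fold is 1. HK1, the hexokinase of most tissues, was nearly level at 15.9, 17.2 and 16.7 FPKM. Within a library, where the total and any common scaling factor cancel, HK2 over HK1 was 0.511 in kid (0.460 to 0.566), 0.641 in youth (0.582 to 0.706) and 0.988 in adult (0.912 to 1.07). The share of HK2 among the 5 hexokinase genes was accordingly 32.8%, 37.7% and 48.9%.

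The bifunctional PFKFB enzymes both make and remove fructose-2,6-bisphosphate, and the member with the strongest kinase side, PFKFB3, varied most of the 9 genes. It was highest in youth with 135 FPKM, against 74.0 in kid and 26.4 in adult, from 1925, 3306 and 800 reads. Youth was 1.82-fold above kid (1.72 to 1.93), adult 5.10-fold below youth (4.72 to 5.51) and 2.80-fold below kid (2.57 to 3.04). On the log2(FPKM + 1) scale the differences were 0.86, -2.31 and -1.45. In adult against youth 7 of 12121 entries, PFKFB3 among them, were at least as far down. The 7 macrophage markers with an entry, none at 0 throughout, summed to 66.8, 74.7 and 37.5 FPKM. Of the 7, 6 were lower in adult than in youth beyond counting error, beside 27.0% of all entries. All 6 fibroblast markers were lower too, against the same share, with sums of 837, 1025 and 705 FPKM. In youth against kid 1 macrophage marker was higher and 0 lower beyond counting error, beside 11.6% and 26.9% of all entries. Of the fibroblast markers 4 were higher and 2 lower in that comparison. Of 4 Schwann cell markers above the filter, 0 were higher and 4 lower in youth against kid, and 1 higher and 3 lower in adult against youth. Their part in the PFKFB3 values was not tested.

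PFKFB1, the form known from liver and muscle, was close to level. Its values were 27.7, 27.9 and 31.7 FPKM, with youth over kid at 1.01 (0.911 to 1.11) and adult over youth at 1.14 (1.04 to 1.25). PFKFB3 was thus 2.67 times PFKFB1 in kid, 4.84 times in youth and 0.834 times in adult, so that the order of these genes was the opposite in adult. PFKFB4, a further form, followed the same order of libraries as PFKFB3 over a narrower range, at 72.4, 89.9 and 62.8 FPKM. The summed family stood at 181, 259 and 130.1 FPKM, and PFKFB3 held 40.8%, 52.04% and 20.3% of it. PFKFB4 held 39.9%, 34.7% and 48.3%, and was the most abundant form in adult.

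**Figure D2:**
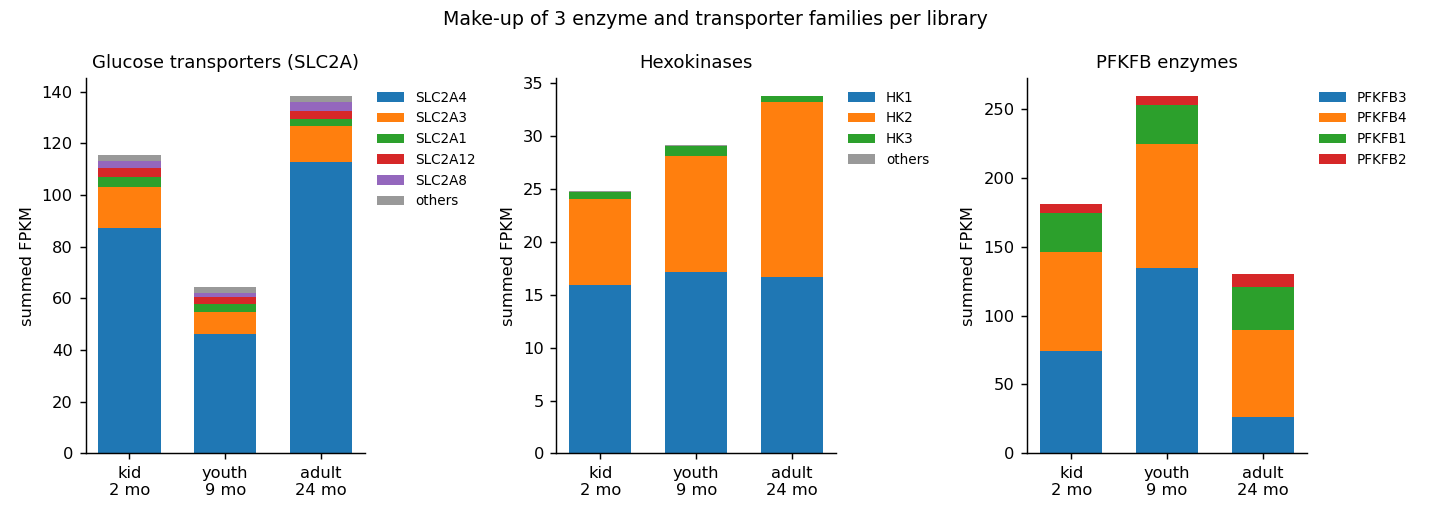
Summed FPKM (vertical axis, linear from 0) of the SLC2A glucose transporters, the hexokinases and the PFKFB enzymes in each library, with 1 colour per gene. HK2 grows from 32.8% to 48.9% of the hexokinases between kid and adult, and PFKFB3 shrinks from 52.04% of the PFKFB enzymes in youth to 20.3% in adult.

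The 4 genes of glycogen synthesis had their highest values in the adult library, GBE1 without exceeding kid beyond counting error. All 5 general muscle fibre markers were also higher in adult than in kid beyond counting error, beside 16.7% of all entries. Their median difference was 0.52, with sums of 48654, 57634 and 66969.5 FPKM in kid, youth and adult. After quantile normalization 4 of these markers were higher and 1 lower, with a median of 0.20. After scaling by the median of gene ratios all 5 markers were higher, with a median of 0.65. In youth against kid 4 of the markers were higher and 1 lower beyond counting error, beside 11.6% and 26.9% of all entries. Of the 4 synthesis genes 1 was higher and 3 lower in that comparison. In adult against youth 4 of the markers and all 4 synthesis genes were higher, beside 22.3% of all entries, and 0 were lower. The part of the fibre markers in the synthesis values was not tested. GYS1, the synthase that extends the chains, had 133, 114 and 188 FPKM in the kid, youth and adult libraries. Adult was 1.64-fold above youth (1.58 to 1.71) and 1.41-fold above kid (1.36 to 1.47), and youth 1.17-fold below kid (1.11 to 1.22). The second entry described as muscle glycogen synthase, with no symbol in the reference table, stood at 144, 117 and 191 FPKM. The lengths behind these FPKM values were 2025 bases for the first entry and 394 for the second. Both entries thus placed the libraries in the same order, with ratios of adult to youth of 1.64 and 1.63. How the entries relate in the genome was not examined.

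The other synthesis genes differed by less. UGP2 was at 177, 169 and 236 FPKM, with adult 1.40-fold above youth (1.35 to 1.45). Youth was 1.05-fold below kid for UGP2 (1.01 to 1.09), a difference of -0.07 on the log2 scale that was 0.04 after scaling by the median of gene ratios. GYG1, the glycogenin that primes each new particle, stood at 118, 127 and 146 FPKM, with youth over kid at 1.08 (1.03 to 1.13) and adult over youth at 1.15 (1.10 to 1.20). GBE1, which adds the branches, was at 8.89, 7.83 and 9.35 FPKM, from 545, 452 and 666 reads. Its adult and kid values were within counting error of each other (1.05, 0.937 to 1.18), and youth was 1.14-fold below kid (1.001 to 1.29). GYS1 exceeded GBE1 15.0-fold in kid, 14.6-fold in youth and 20.1-fold in adult. The second glycogenin gene, GYG2, reached at most 1.87 FPKM. The liver synthase GYS2 was listed at 0.0418 FPKM in kid and at 0 in the other libraries.

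PYGM, which acts in glycogen breakdown, was highest in the youth library. It was 1.17-fold above kid in youth (1.16 to 1.17), and adult was 1.24-fold below youth (1.23 to 1.25). Adult was 1.07-fold below kid for PYGM (1.06 to 1.08), a difference of -0.09 on the log2 scale that became 0.05 after scaling by the median of gene ratios. PYGM held over 99% of the messages of the 3 phosphorylase genes in every library, with 99.5% in each after rounding, while the liver form PYGL stood at 10.04, 10.4 and 8.98 FPKM.

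PYGM and the synthesis genes therefore stood in different proportion in the 3 libraries, on a measure that a common scaling factor per library cannot change. PYGM over GYS1 was 17.2 in kid (16.7 to 17.7), 23.3 in youth (22.6 to 24.2) and 11.4 in adult (11.2 to 11.7). Youth was highest and adult lowest, with intervals that did not overlap between libraries. Among the synthesis genes, GYS1 over GYG1 was 1.13 in kid (1.08 to 1.18), 0.899 in youth (0.858 to 0.943) and 1.29 in adult (1.24 to 1.33). The synthase thus lay below the primer gene in youth alone. Summed over its 4 genes, synthesis stood at 437, 418 and 579.8 FPKM.

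**Figure D3:**
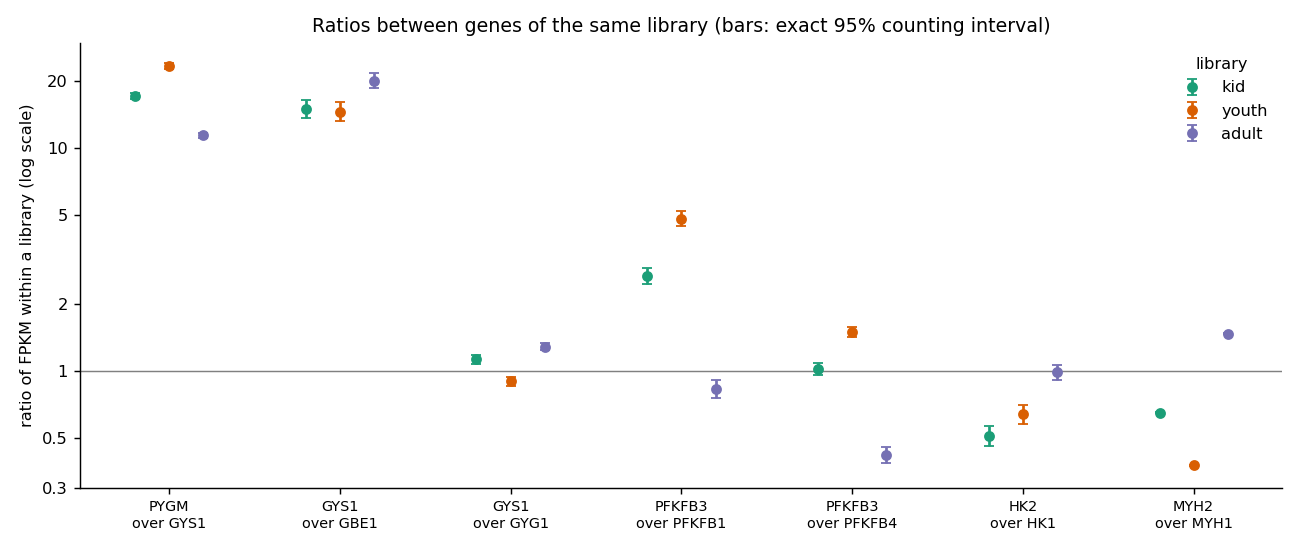
Ratios of FPKM between named genes of the same library (vertical axis, log scale) for kid, youth and adult, with exact 95% counting intervals as bars. PYGM over GYS1 is highest in youth at 23.3 and lowest in adult at 11.4, and PFKFB3 over PFKFB1 lies above 1 in kid and youth and at 0.834 in adult.

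All 9 genes passed the filter of a mean of at least 1 FPKM. On the log2(FPKM + 1) scale youth against kid had 0 of them at least 2-fold apart, beside 1.05% of the 12121 entries. At least 1.5-fold apart were 2 genes (SLC2A4 lower, PFKFB3 higher), beside 5.27% of entries. Beyond counting error 4 were higher and 4 lower, beside 11.6% and 26.9% of entries. The median log2 difference of the 9 genes was 0.01, and that of all entries -0.08.

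Adult against youth had 2 of the 9 genes at least 2-fold apart, SLC2A4 higher and PFKFB3 lower, beside 2.08% of entries. GYS1 (higher) was added at 1.5-fold, beside 10.9% of entries. All 9 were beyond counting error, 7 higher and 2 lower, beside 22.3% and 27.0% of entries. These shares are not matched for reads, and more reads narrow the interval, so small ratios such as 1.14 for PFKFB1 count here. The lower genes were PFKFB3 and PYGM. The median difference was 0.23, against -0.02 for all entries.

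Adult against kid had 1 of the 9 genes at least 2-fold apart, PFKFB3, beside 1.76% of entries. HK2 was added at 1.5-fold, beside 9.24% of entries, and it passed 2-fold with a pseudocount of 0.1. Beyond counting error 6 were higher and 2 lower, beside 16.7% and 34.6% of entries, and the median difference was 0.31 against -0.10 for all entries. The 3 comparisons share libraries, each library entering 2 of them, so a feature of the youth library alone counts in both steps.

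**Figure D4:**
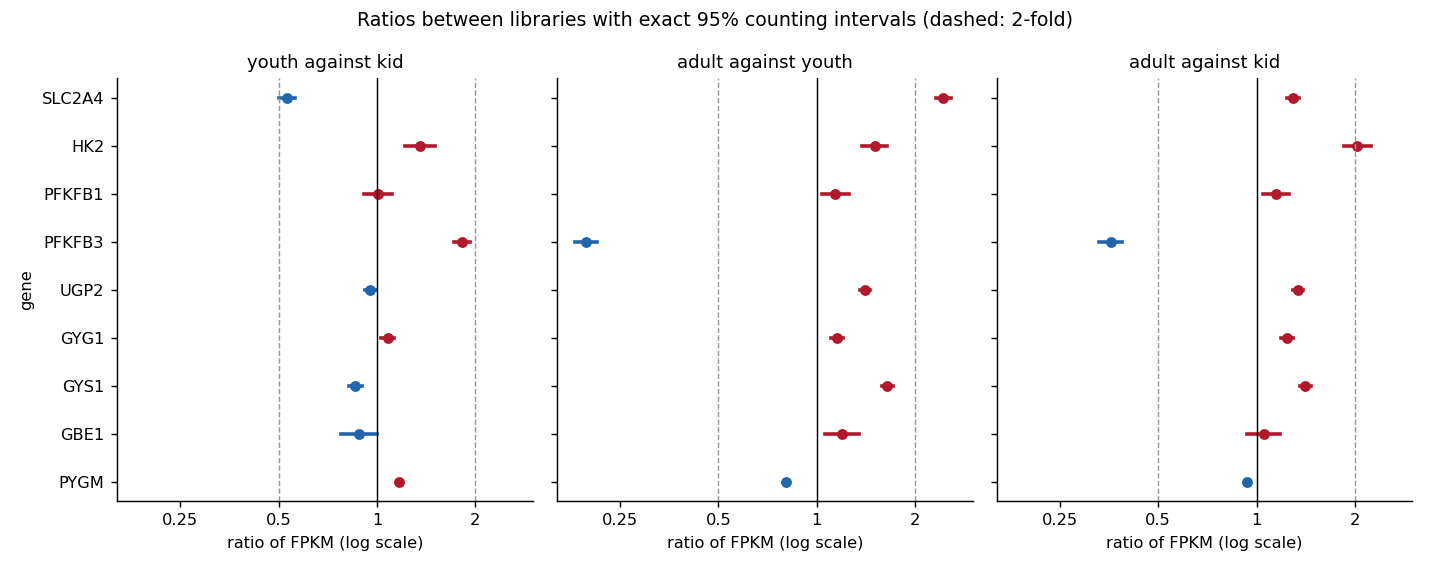
Ratio of FPKM (horizontal axis, log scale) for each of the 9 genes in the 3 comparisons, with exact 95% counting intervals, red above 1 and blue below 1, and dashed lines at 2-fold. Between youth and adult SLC2A4 lies at 2.44 and PFKFB3 at 0.196, while UGP2 in youth against kid and PYGM in adult against kid lie close to 1 and change side under scaling by the median of gene ratios.

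Among the regulators of glycogen breakdown, the subunits of phosphorylase kinase and the calmodulin genes were mostly highest in youth. Phosphorylase kinase switches PYGM on when calcium rises, and calmodulin is built into it as the calcium sensor. Of 8 genes in this list 7 had a mean of at least 1 FPKM. In youth against kid 6 were higher and 0 lower beyond counting error, beside 11.6% and 26.9% of all entries, with a list median of 0.37. In adult against youth 0 were higher and 6 lower, beside 22.3% and 27.0%, with a median of -0.36. PHKB, the beta subunit, stood at 108, 148 and 118 FPKM in kid, youth and adult. PHKG1, the catalytic subunit of muscle, stood at 40.2, 52.7 and 27.0 FPKM, with adult over youth at 0.512 (0.473 to 0.555). The calmodulin gene CALM3 was at 176, 272 and 203 FPKM, and CALM2 at 205, 264 and 142 FPKM. PHKG2, the catalytic subunit known from liver, stood at 7.11, 5.19 and 6.82 FPKM, with both steps within counting error. Calmodulin serves many other enzymes, and its 3 genes encode the same protein.

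Protein phosphatase 1, brought to glycogen by targeting subunits, activates the synthase and switches off phosphorylase. The list of 10 genes named its 3 catalytic subunits and 7 targeting subunits. PPP1R3E and PPP1R3G had no matched entry, and the 8 genes with an entry all passed the filter on low values. In youth against kid 3 were higher and 2 lower beyond counting error (median 0.07), beside 11.6% and 26.9% of all entries. In adult against youth 4 were higher and 2 lower (median 0.22), beside 22.3% and 27.0%. PPP1R3A, the main targeting subunit of muscle, was at 211, 173 and 237 FPKM, lowest in youth as GYS1 was. PPP1R3C stood at 62.02, 67.1 and 88.8 FPKM. PPP1R3D, at 6.73, 8.03 and 15.3 FPKM, was 2.27-fold above kid in adult (1.98 to 2.60).

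AMP-activated protein kinase senses low energy, favours glucose uptake and inhibits glycogen synthase. Of its 7 subunit genes and the upstream kinase STK11, 2 were higher and 3 lower in youth against kid beyond counting error (median 0.00), where all entries gave 11.6% and 26.9%. In adult against youth 4 were higher and 2 lower (median 0.15), where all entries gave 22.3% and 27.0%. PRKAG3, a gamma subunit found mainly in glycolytic fibres, was highest in youth, at 23.3, 33.4 and 17.4 FPKM. Another gamma subunit, PRKAG2, was lowest there, at 15.4, 11.3 and 19.98 FPKM. So was the catalytic subunit PRKAA1, at 16.7, 12.8 and 18.05 FPKM.

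Genes of GLUT4 vesicle traffic differed in both directions. Of 21 genes with an entry, all above the filter, 4 were higher and 3 lower in youth against kid beyond counting error, against 11.6% and 26.9% of all entries. From youth to adult 4 were higher and 10 lower, against 22.3% and 27.0%. The median differences were -0.04 and -0.15, the first of which was 0.06 after scaling by the median of gene ratios. TBC1D4 (AS160), which holds the vesicles back until insulin signalling releases it, was at 21.1, 26.6 and 14.5 FPKM, lowest where SLC2A4 was highest. ASPSCR1 (TUG), which tethers the vesicles inside the cell, was at 16.3, 13.05 and 19.1 FPKM, in the same order of libraries as SLC2A4. VAMP2, a vesicle protein of the fusion machinery, was also lowest in youth, at 27.2, 20.6 and 28.3 FPKM. Among the 10 genes lower in adult than in youth were RAB8A, at 12.3, 11.9 and 7.78 FPKM, and DOC2B, at 2.02, 1.84 and 1.11 FPKM. So was RAC1, the most abundant of the list, at 97.1, 107 and 95.7 FPKM.

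Other enzymes of hexose phosphates were mixed, with 4 of 13 higher and 3 lower in youth against kid beyond counting error, beside 11.6% and 26.9% of all entries. Adult against youth gave 3 higher and 7 lower, beside 22.3% and 27.0%. TIGAR, a phosphatase that can remove fructose-2,6-bisphosphate, stood at 7.34, 7.87 and 19.8 FPKM, and adult was 2.52-fold above youth (2.24 to 2.83). Its highest value fell in the library where PFKFB3 was lowest. PFKM, the muscle phosphofructokinase that fructose-2,6-bisphosphate activates, was at 624, 704 and 600.4 FPKM. FBP2, the muscle enzyme for the opposite reaction, was at 404, 361 and 515.5 FPKM. Among 9 further glycogen genes above the filter, against the same shares, 2 were higher and 2 lower in youth against kid, and 1 higher and 4 lower in adult against youth. The gene higher in adult was GAA, the lysosomal glucosidase that digests glycogen, at 11.9, 10.4 and 19.2 FPKM.

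Transcription regulators with known ties to SLC2A4, HK2 or PFKFB3 differed widely among themselves. Of 18 genes 4 were higher and 8 lower in youth against kid beyond counting error, where all entries gave 11.6% and 26.9%. Between adult and youth 6 were higher in adult and 7 lower, where all entries gave 22.3% and 27.0%. PPARGC1A, a coactivator of oxidative genes that also acts on SLC2A4, had its values in the same order as HK2, at 26.1, 43.3 and 130.5 FPKM. ESRRG, a nuclear receptor that partners it, was lowest in youth as SLC2A4 was, at 12.2, 3.40 and 21.4 FPKM. NR4A3, an orphan nuclear receptor that responds to exercise, also had the order of HK2, at 20.4, 58.2 and 124 FPKM. Its relative NR4A1 had the opposite order, at 125, 75.6 and 39.6 FPKM, as did MYC, a driver of growth and glycolytic genes, at 23.3, 16.1 and 5.77 FPKM. MEF2C, a muscle transcription factor known to bind the SLC2A4 promoter, stood at 104, 90.9 and 87.9 FPKM.

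**Figure D5:**
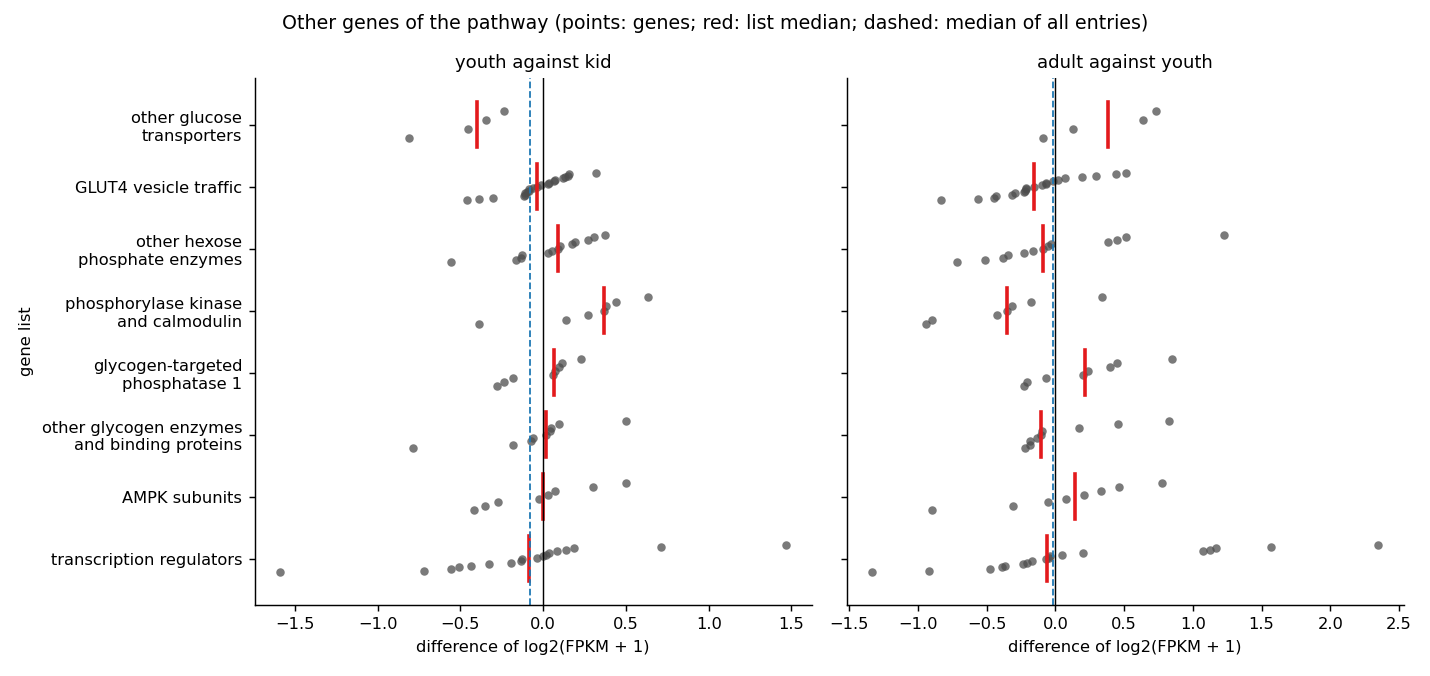
Differences of log2(FPKM + 1) (horizontal axis) for the genes of 8 pathway lists in youth against kid and adult against youth, with each list's median in red and the median of all entries dashed. Phosphorylase kinase and calmodulin genes have a median of 0.37 in the first comparison and -0.36 in the second, while the median of GLUT4 vesicle traffic is -0.04 in the first and changes side under other scalings.

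Genes closest in pattern to SLC2A4 and PFKFB3, the only ones of the 9 at least 2-fold apart on the log2(FPKM + 1) scale, were sought by the distance of their steps from kid to youth and from youth to adult. The search covered 6833 genes with a symbol and a mean of at least 5 FPKM, and a likeness over 3 libraries is a weak description. Among the 5 closest to SLC2A4 were ICA1 (distance 0.06 on the log2 scale), C4H7orf49 (0.13), CHRDL2 (0.13) and MYL3 (0.17). MYL3, the slow-fibre light chain, stood at 853, 406 and 948 FPKM. Nearest to PFKFB3, at larger distances, were NREP (0.51), MSTN (0.54), TRIM63 (0.60), GADD45B (0.70) and MX1 (0.87).

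Fibre type markers also differed between the libraries, in both directions. Of 12 looked for, 9 had a matched entry. Of 8 above the filter, 3 were higher and 5 lower in youth against kid beyond counting error, beside 11.6% and 26.9% of all entries. In adult against youth 4 were higher and 4 lower, beside 22.3% and 27.0%. More reads narrow the interval, so small ratios count for such abundant genes, and the shares are not matched for reads. The list medians were -0.12 and 0.02. MYH1, the heavy chain of fast 2X fibres, was at 4693, 5942 and 2636 FPKM, the order of libraries seen for PFKFB3 and, except under scaling by the median of gene ratios, PYGM. MYH2, the heavy chain of 2A fibres, was at 3054, 2248 and 3887 FPKM, the order seen for SLC2A4 and GYS1. Reads of these near-identical genes may have been split between them. The slow-fibre markers named here did not move as a block. MYL3 was lowest in youth, as was the slow troponin TNNC1, at 4818, 3703 and 4023 FPKM. The light chain MYL2 was highest in youth, at 6456, 7509 and 6873 FPKM. The 3 red blood cell markers with an entry summed to at most 2.52 FPKM. The part of fibre type in the differences was not tested.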

How the data were processed

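RNA from the longissimus dorsi of goats at 3 stages was sequenced, with 1 library per stage. The authors deposited FPKM, 1 column per stage. Per the submitters' processing notes FastQC, TopHat2 and DESeq were used, with no role stated. Genome build, annotation and counting method: not given in the sources used here.

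Entries were selected by product text; list genes were matched by gene number to a RefSeq table of the goat assembly ARS1.2 (21743 entries matched), otherwise by product text. Whole reads and lengths were recovered from the FPKM steps (tolerance 5e-05 of a read) for all 16054 entries above 0 in 3 libraries. They were also recovered for all 1157 entries above 0 in 2 libraries. The recovered reads of both sets together made up 94.9% to 96.3% of the totals. Reads and length sharing a factor would be returned too small. Steps were tested on simulated reads.

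Differences were taken as log2(FPKM + 1), pseudocount 1, among 12121 entries with a mean of at least 1 FPKM. Ratios carry exact 95% conditional binomial intervals, levels exact Poisson intervals. PCR duplicates are not separable, so both cover counting error only. "Beyond counting error" means that the interval left out 1. Intervals narrow as reads rise, so genes with more reads pass at smaller ratios. The shares of all entries beside such counts are not matched for reads.

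Named were all 9 genes and, per list, genes taken from the most abundant and the 3 with the largest difference in each comparison. HK1, PYGL, GYS2, the transporters at 0 and the 1.5-fold count were chosen after values were seen. Genes and lists were chosen with earlier results of these data known. Python 3.11.15 with numpy 2.4.6, pandas 2.3.3 and scipy 1.17.1 was used. Some genes are not reported here.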

Additional observations from a re-analysis of the deposited data

How the results depend on the processing

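No paired analysis was possible because each stage had 1 library; for the same reason no library could be left out. Under 8 alternatives, 216 differences of single genes were recomputed, and 183 shifted by no more than the half-width of their counting interval. The alternatives that only drop the filter or raise it to 5 FPKM cannot move a single gene's difference, so their part of the 183 was fixed in advance. In all, 2 differences changed sign, UGP2 in youth against kid and PYGM in adult against kid, both under median-of-ratios scaling. Genes of the 9 at least 2-fold apart in adult against kid were 2 in place of 1 with a pseudocount of 0.1, with median-of-ratios scaling and with quantile normalization, HK2 being the addition. Median-of-ratios scaling shifted the median of all entries in adult against kid by 0.12, and moved the median of the 9 genes to 0.11 in youth against kid and 0.44 in adult against kid. All entries at least 2-fold apart numbered 127, 252 and 213 for youth against kid, adult against youth and adult against kid. They numbered 300, 555 and 451 with a pseudocount of 0.1, 45, 82 and 71 with a pseudocount of 5, and 64, 160 and 122 at a mean of at least 5 FPKM. Of the 127 and 213, 51 and 65 were higher; after quantile normalization 62 of 118 and 90 of 190 were, and after median-of-ratios scaling 92 of 197 in adult against kid. At 1.5-fold, chosen after seeing the data, the 9 genes gave 2, 3 and 2 and all entries 639, 1316 and 1120. Adding both GYS1 entries, also chosen afterwards, changed no count. With 452 to 666 reads, GBE1 has the widest intervals of the 9.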
